A study of Mus musculus with 6 samples.

Results

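Angptl4, Cpt1a, Acadm, Pdk4, Ehhadh, Cyp4a10, Plin2 and Ppara are PPAR targets of fatty acid oxidation, with Ppara the receptor itself. They were examined in irradiated mouse intestine, because Angptl4 was higher with free ubiquitin (free Ub) than with PBS in an earlier look at the same arrays. Of these 8 genes among the 19057 genes named on the arrays, 7 had a probe, and Cyp4a10 had none in the annotation used here. The group was therefore chosen on the contrast described, and its own differences are given as values without a test.

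The 6 male C57 mice, C57BL/6J in the study's methods, received free Ub or PBS and a single total body dose of 7 Gy, with 3 mice in each group. The labels give an age of 4 weeks, treatment after the radiation and collection 3.5 days after it, whereas the study's methods describe older mice treated before radiation and its legend a collection within hours. All 6 intestines were irradiated, so each value sets free Ub against PBS after radiation and holds no unirradiated level. Total RNA of 1 intestine was hybridised to each Illumina array, and nothing in the labels assigns the arrays to batches. Whole intestine holds many cell types, and in such bulk RNA fewer cells of a type and less RNA per cell cannot be told apart.

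PPARα is a nuclear receptor that is switched on by fatty acids and binds DNA together with the retinoid X receptor. Its targets bring fatty acids into mitochondria and peroxisomes, oxidise them there, store the surplus in lipid droplets and hold back the use of glucose. The small intestine takes up dietary fat, and its enterocytes respond to that fat through PPARα and PPARδ. Angptl4, a secreted inhibitor of lipoprotein lipase, is also a known target of hypoxia and of glucocorticoids, so genes of both responses were followed beside it.

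The receptor pair binds a direct repeat of AGGTCA with 1 base between the copies. RefSeq promoters of build GRCm38.p6 matched 6 of the 8 genes, all but Angptl4 and Cyp4a10, and the 250 bases before each start were searched on both strands. The repeat, known as DR1, was searched as AGGTCA, any base and AGGTCA again with up to 2 mismatches, which 3.24% of 32851 promoters held, and the single copy (AGGTCA) without mismatch, which 14% held. The promoters of Plin2 and Acadm are printed because these were the genes whose 3 free Ub values all lay above the 3 PBS values. Each reads 5′ to 3′ on the gene's strand, with the matched letters in capitals. That of Plin2 lies at chr4:86670060-86670309 on the minus strand, and its repeat starts 225 bases before the gene's start with 2 mismatches and contains the single copy. That of Acadm lies at chr3:153944644-153944893 on the minus strand, and its single copy starts 249 bases before the start.
Plin2: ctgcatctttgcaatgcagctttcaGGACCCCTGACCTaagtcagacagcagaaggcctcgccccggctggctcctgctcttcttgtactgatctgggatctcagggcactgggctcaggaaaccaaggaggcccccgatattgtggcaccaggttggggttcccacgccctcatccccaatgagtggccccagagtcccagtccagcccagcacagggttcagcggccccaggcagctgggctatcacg
Acadm: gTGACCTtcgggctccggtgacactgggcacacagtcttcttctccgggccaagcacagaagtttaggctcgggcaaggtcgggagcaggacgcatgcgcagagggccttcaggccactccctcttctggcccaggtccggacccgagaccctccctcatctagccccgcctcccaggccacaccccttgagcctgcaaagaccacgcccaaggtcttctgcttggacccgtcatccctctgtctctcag
Cpt1a held 1 single copy, starting 94 bases before its start, and the windows of Pdk4, Ehhadh and Ppara held neither motif. A match describes letters in this window and was not tested as a binding site.

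Angptl4 had a mean log2 signal 1.05 higher with free Ub than with PBS, a fold of 2.07, and the groups overlapped. Its brighter probe, ILMN_2759365, read 7.98, 8.50 and 7.36 in free Ub intestines 1 to 3, against 7.53, 6.28 and 6.88 in PBS intestines 1 to 3. The means were 7.95 ± 0.57 with free Ub and 6.89 ± 0.63 with PBS (SD, n = 3 each). Free Ub intestines 1 and 2 lay above all PBS intestines, and free Ub intestine 3 lay below PBS intestine 1. The difference was 0.74 without PBS intestine 2 and 1.37 without PBS intestine 1, the lowest and highest values when 1 array was left out. The second probe, ILMN_2424627, was at the floor of the scale on all 6 arrays, within 0.01 of each array's lowest value. The mean of both probes differed by 0.52.

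The spread of Angptl4 within the groups was wide. Its pooled SD was 0.60, and 98.58% of the 1336 genes with a mean within 0.5 log2 of its own had a smaller one.

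Plin2, which coats lipid droplets, was higher in all 3 free Ub intestines than in any PBS intestine. Probe ILMN_1222246 read 7.14, 7.10 and 7.17 in free Ub intestines, against 6.85, 6.80 and 6.84 in PBS intestines. The means were 7.14 ± 0.04 with free Ub and 6.83 ± 0.02 with PBS (SD, n = 3 each), a difference of 0.31 and a fold of 1.24. Both groups were tight, and their gap was many times the spread inside them. Only 0.0719% of 1391 genes of similar brightness had a pooled SD below the 0.03 of Plin2, while 6.40% of them were higher with free Ub by more. Leaving out 1 array gave differences of 0.29 to 0.33.

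Acadm, the medium-chain acyl-CoA dehydrogenase of mitochondrial β-oxidation, gave the same order with a smaller gap. Probe ILMN_2810473 read 11.02, 11.13 and 11.21 in free Ub intestines, against 10.92, 10.97 and 10.84 in PBS intestines. The means were 11.12 ± 0.09 with free Ub and 10.91 ± 0.07 with PBS (SD, n = 3 each), a difference of 0.21 and a fold of 1.16. The lowest free Ub value and the highest PBS value lay close together, and the difference was 0.17 to 0.26 without 1 array.

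Pdk4 encodes the kinase that shuts the pyruvate dehydrogenase complex and so spares glucose when fat is burned. Probe ILMN_1259322 read 7.34, 7.56 and 7.18 in free Ub intestines, against 7.08, 7.21 and 6.85 in PBS intestines. The groups overlapped in 1 pair of values, free Ub intestine 3 lying just below PBS intestine 2. The means were 7.36 ± 0.19 with free Ub and 7.05 ± 0.18 with PBS (SD, n = 3 each), and the difference was 0.31, or 0.21 to 0.40 without 1 array.

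Ehhadh, the bifunctional enzyme of peroxisomal β-oxidation, had nearly equal means. Probe ILMN_2706120 read 7.21, 6.85 and 7.37 in free Ub intestines, against 6.97, 7.44 and 6.93 in PBS intestines. The means were 7.14 ± 0.27 with free Ub and 7.11 ± 0.29 with PBS (SD, n = 3 each). The highest of the 6 values was from a PBS intestine and the lowest from a free Ub intestine. The difference of 0.03 was smaller than the SD of either group and turned to -0.04 without PBS intestine 1, to -0.06 without PBS intestine 3 and to -0.08 without free Ub intestine 3.

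Cpt1a, the carnitine palmitoyltransferase that admits long-chain fatty acids to mitochondria, was dim and ran the other way on its brighter probe. Probe ILMN_1213487 read 3.03, 1.90 and the floor in free Ub intestines, against 3.48, 3.21 and 3.40 in PBS intestines. The means were 1.64 ± 1.53 with free Ub and 3.36 ± 0.14 with PBS (SD, n = 3 each), a difference of -1.72 without overlap. Free Ub intestine 3, at the floor, set much of it, and the difference without that array was -0.90. The second probe, ILMN_2591776, read 0.80, 1.46 and the floor in free Ub intestines, against the floor, 0.75 and the floor in PBS intestines. The probes of Cpt1a thus differed in opposite directions, by -1.72 and 0.50. With values under 4 raised to 4, the difference of Cpt1a was 0.

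Ppara, the receptor, was also dim. Probe ILMN_2927172 read 1.91, 0.96 and 3.46 in free Ub intestines, against the floor, 3.64 and 3.56 in PBS intestines. The means were 2.11 ± 1.26 with free Ub and 2.40 ± 2.08 with PBS (SD, n = 3 each). Its difference of -0.29 was smaller than either SD, and it turned to 0.33 without PBS intestine 2, to 0.29 without PBS intestine 3 and to 0.29 without free Ub intestine 2. Among 2161 genes with a mean within 0.5 log2 of that of Ppara, 94.3% had a smaller pooled SD.

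**Figure D1:**
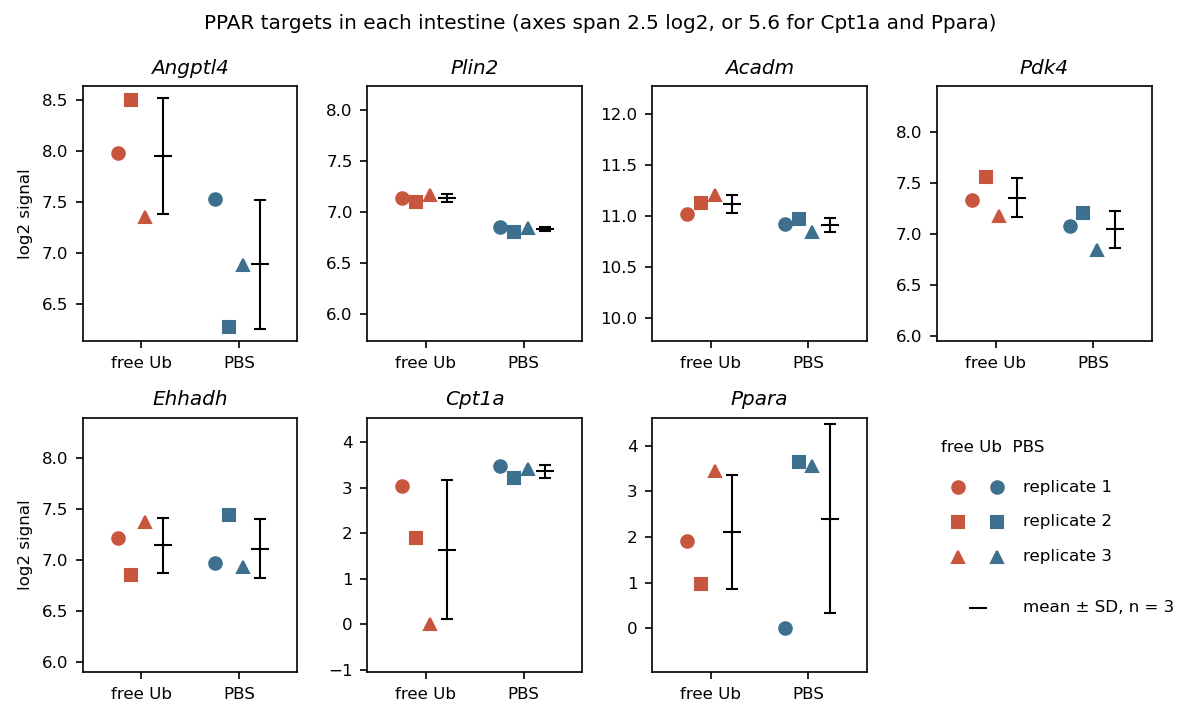
Log2 signal of each PPAR target with a probe, one point per intestine, free Ub left of PBS, with the mean ± SD of each group (n = 3) at the right of its points. The groups stand apart for Plin2 and Acadm, overlap for Angptl4, Pdk4, Ehhadh and Ppara, and in Cpt1a 1 free Ub intestine lies at the floor.

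The genes with a mean log2 signal above 6 were Angptl4, Plin2, Acadm, Pdk4 and Ehhadh. All 5 had a higher mean with free Ub, Ehhadh by only 0.03, as did 2891 of the 6141 genes above that level on the arrays. Cpt1a and Ppara, the dim ones, had a lower mean. The median difference was 0.31 over these 5 genes, against -0.01 over the 6141 genes of the arrays above that level, and 0.21 over all 7 genes, against 0 over all 19057. Of the 7 genes, 2 (Plin2 and Acadm) were higher without overlap between the groups (3.74% of all genes, and 4.35% of those with a mean above 6) and 1, Cpt1a, lower (5.02% and 5.83%). As the genes were chosen on this contrast, these counts describe them only.

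The intestines kept no common order over these genes. Ranked from 1 for the highest of the 6 values, the 5 brighter genes gave mean ranks of 2.4, 2.6 and 2.4 for free Ub intestines 1 to 3, against 4.2, 4.0 and 5.4 for PBS intestines 1 to 3. Free Ub intestine 2 was the highest for Angptl4 and Pdk4 and the lowest for Ehhadh. Free Ub intestine 3 was the highest for Plin2 and Acadm and only the fourth for Angptl4 and Pdk4. PBS intestine 2 was the lowest for Angptl4 and Plin2 and the highest for Ehhadh.

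**Figure D2:**
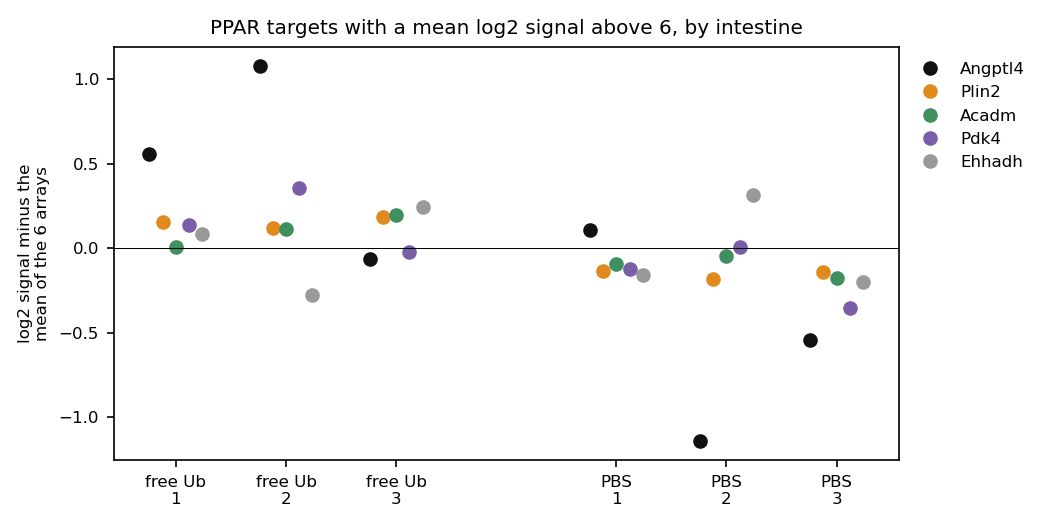
Log2 signal minus the mean of the 6 arrays for the 5 PPAR targets with a mean above 6, one column of points per intestine, free Ub left of PBS. Angptl4 spans the widest range, and Ehhadh is lowest in free Ub intestine 2, where Angptl4 and Pdk4 are highest.

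**Figure D3:**
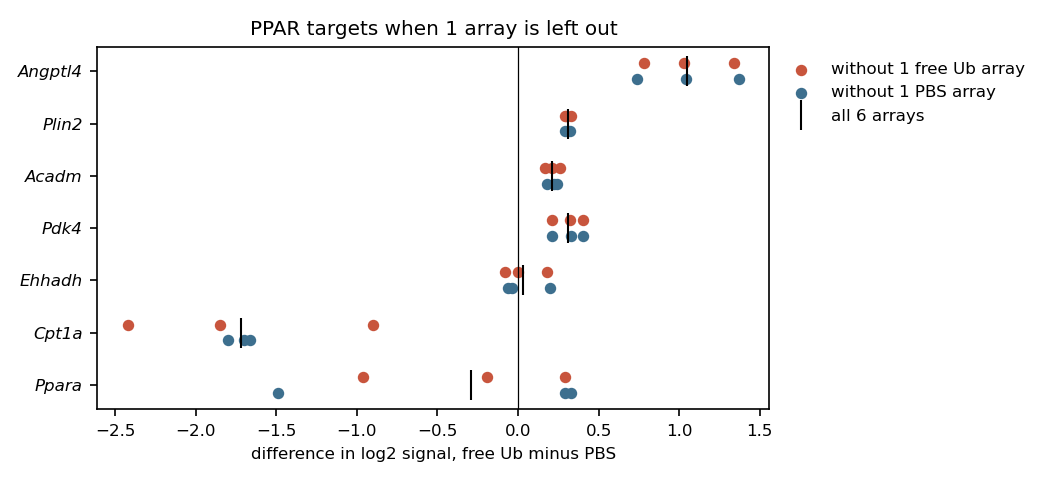
Difference in log2 signal, free Ub minus PBS, of each PPAR target with all 6 arrays (black bars) and with 1 array left out (points, by the group of the array left out). Angptl4 stays between 0.74 and 1.37 and Plin2 between 0.29 and 0.33, whereas Ehhadh and Ppara fall on both sides of 0.

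By Pearson's r over the 6 arrays, the 5 genes whose pattern was most like that of Angptl4, among 6140 others with a mean above 6, were Entpd8 (r = 0.934), Xpnpep2 (0.930), Ccnc (0.919), Chd2 (0.913) and Kbtbd4 (0.908). Entpd8 is an ectonucleotidase, Xpnpep2 a membrane aminopeptidase, Ccnc cyclin C, Chd2 a chromatin remodeller and Kbtbd4 a Kelch protein. With 6 points drawn from the same arrays and 6140 genes searched, such values describe the arrays and were not tested. Entpd8 read 7.76, 7.85 and 7.61 in free Ub intestines, against 7.41, 7.04 and 7.43 in PBS intestines, without overlap. None of the PPAR targets was among the 5, and the difference of Entpd8, 0.44, was below the 1.05 of Angptl4. Xpnpep2 differed by 0.29, Ccnc by 0.21, Chd2 by 0.15 and Kbtbd4 by 0.09.

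To see whether other genes of the pathway moved with them, 8 lists were drawn up without the 8 genes above, and 96 of their 105 genes had a probe. Of the 96, 52 had a higher and 43 a lower mean with free Ub, 1 was at the floor on all 6 arrays, and the median difference was 0.01, against 0 over all genes. In limma, fitted to all probes, 7 were higher at an unadjusted p under 0.05 (Acaa2, Eci2, Ech1, Decr2, Etfdh, Acsl3 and Etfa), beside 2.34% of all genes, and 3 were lower (Ppargc1b, Lmf1 and Cyp4a12a), beside 3.4%. None passed after Benjamini-Hochberg adjustment over all probes, where 0.053% of the 45281 probes and 0.0577% of genes did. The study's threshold, a fold of 2 with an unadjusted p under 0.05, was passed by 2.19% of all genes and by 1 of the 96, Cyp4a12a, whose free Ub values were all at the floor, and by 0 to 3 of the 96 when 1 array was left out. The probes were also limited to those whose mean exceeded the median probe mean (2.086). Then 2 list genes were higher and 0 lower at an unadjusted p, beside 1.67% and 2.76% of the 12502 genes kept. With the mean of all probes of a gene 4 list genes were higher and 3 lower, beside 2.67% and 3.07% of all genes. Acaa2, Eci2, Ech1, Decr2, Ppargc1b and Lmf1 kept their call when any 1 array was left out. Etfdh lost it without PBS intestine 2 or 3 (differences of 0.24 to 0.38 over the 6 omissions), and Acsl3 without PBS intestine 2 or 3 or free Ub intestine 2 or 3 (0.38 to 0.64). Etfa kept it only without PBS intestine 2 (0.22 to 0.36), and Cyp4a12a only without PBS intestine 3.

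The mitochondrial carnitine shuttle and β-oxidation list held the most of them. It was also the largest list, with 20 of the 96 measured genes. All 20 of its genes had a probe above the floor on every array, 15 had a higher and 5 a lower mean with free Ub, and the median difference was 0.13. Acaa2, Eci2, Etfdh and Etfa were higher at an unadjusted p under 0.05, and 0 genes were lower. Over all genes, 2.34% were higher and 3.4% lower at that p, and 8443 of 19057 had a higher mean. Acaa2, the thiolase that ends each round of β-oxidation, read 10.90, 10.82 and 10.76 in free Ub intestines, against 10.10, 10.26 and 10.45 in PBS intestines. Its means were 10.83 ± 0.07 with free Ub and 10.27 ± 0.18 with PBS (SD, n = 3 each), a difference of 0.56 (limma, adjusted p = 0.50). All 4 probes of Acaa2 were higher with free Ub, by 0.26 to 0.56, and 3 of them at an unadjusted p under 0.05.

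Eci2, an isomerase for unsaturated fatty acids, read 7.39, 7.37 and 7.41 in free Ub intestines, against 7.16, 7.10 and 7.22 in PBS intestines. Its difference was 0.23 (limma, adjusted p = 0.477), with tight groups that did not overlap. Etfdh, which passes electrons from β-oxidation to the respiratory chain, read 8.88, 8.92 and 9.16 in free Ub intestines, against 8.71, 8.61 and 8.66 in PBS intestines. That difference was 0.33 (limma, adjusted p = 0.741), while a dim probe of Etfdh was lower at an unadjusted p under 0.05 (difference -0.89), so its probes disagreed. Etfa, which feeds Etfdh, differed by 0.30 on its brightest probe and by 0.01 and 0.13 on the others. Acads and Acadl, the short-chain and long-chain relatives of Acadm, differed by -0.36 and -0.19, and Cpt1b, the muscle form of Cpt1a, by -0.13. None of these 3 passed an unadjusted p, and the carnitine-acylcarnitine carrier Slc25a20 (0.27) and Hadha (0.34) did not either.

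Among 17 genes of peroxisomal oxidation, 7 had a higher and 10 a lower mean, with a median difference of -0.04. Ech1, an isomerase, and Decr2, a reductase, both of which act on unsaturated fatty acids, were higher at an unadjusted p under 0.05. Ech1 read 11.45, 11.42 and 11.54 in free Ub intestines, against 11.22, 11.26 and 11.20 in PBS intestines, a difference of 0.24 (limma, adjusted p = 0.477). Decr2 read 6.09, 6.21 and 6.18 in free Ub intestines, against 5.18, 5.29 and 5.77 in PBS intestines, a difference of 0.75 (limma, adjusted p = 0.646). Its second probe differed by 1.43 without passing an unadjusted p, and read 3.27, 5.71 and 6.05 in PBS intestines 1 to 3. In neither gene did the groups overlap. Pex11a, a peroxisome division factor and known PPARα target, differed by -0.23 (limma, adjusted p = 0.872).

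The receptors and coactivators had a lower mean in 6 of 9 measured genes and a higher mean in 2, with a median difference of -0.12. Pparg and Ppard, the other PPARs, differed by -0.04 and -0.17 and did not pass an unadjusted p. Ppargc1b, a coactivator of mitochondrial genes, was lower at an unadjusted p, with 8.75, 8.71 and 8.80 in free Ub intestines, against 8.90, 8.99 and 8.96 in PBS intestines (difference -0.20, limma, adjusted p = 0.541). Its relative Ppargc1a differed the other way by 0.39 (limma, adjusted p = 0.872), without overlap. The lipin Lpin1, a target and partner of PPARα, differed by 1.02 with overlapping groups (limma, adjusted p = 0.872).

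In fatty acid uptake and activation, 7 of 11 genes had a higher and 4 a lower mean (median 0.04). Acsl3, an acyl-CoA synthetase tied to lipid droplets, read 6.69, 6.91 and 7.18 in free Ub intestines, against 6.60, 6.48 and 6.12 in PBS intestines, a difference of 0.52 (limma, adjusted p = 0.872) that its 2 dim probes did not share. Acsl5, the synthetase of enterocytes, differed by 0.23 and Acsl6 by -0.39, neither passing an unadjusted p. The 3 measured ketone body genes had higher means, by 0.04 in Bdh1 and 0.09 in Oxct1, and none passed.

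Microsomal ω-oxidation is the step of Cyp4a10, a cytochrome P450 that hydroxylates fatty acids, whose family members Cyp4a12a, Cyp4a12b, Cyp4a14 and Cyp4a31 had probes. Cyp4a12a was at the floor in all 3 free Ub intestines, against 2.83, 2.51 and 0.63 in PBS intestines, and was lower at an unadjusted p (limma, adjusted p = 0.872). Cyp4a31 differed by -0.57, Cyp4a12b by -0.18 and Cyp4a14 by 0.11, all dim and none passing. These cytochromes are closely alike in sequence, so a probe may read more than 1 of them. Of the whole list of 9, 5 had a higher and 4 a lower mean (median 0.01), and the brighter Cyp4b1 (-0.39) and Cyp4f16 (0.36) differed in opposite directions without passing.

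Genes of lipid droplets and lipase control are the company of Plin2 and Angptl4. Of 16 measured, 7 had a higher and 9 a lower mean (median -0.02), and Lmf1, which matures lipoprotein lipase, was lower at an unadjusted p. Lmf1 read 6.72, 6.49 and 6.70 in free Ub intestines, against 7.02, 6.94 and 6.89 in PBS intestines (difference -0.32, limma, adjusted p = 0.691). Lpl, the lipase that Angptl4 inhibits, averaged 5.57 ± 0.31 with free Ub and 6.03 ± 0.49 with PBS (SD, n = 3 each), a difference of -0.46 with overlap (limma, adjusted p = 0.872). Plin3, another droplet coat, differed by 0.02, and Plin4 by -0.29. Plin5, at the floor in all 3 free Ub intestines and in 1 PBS intestine, gave no measurable fold. Mgll, the monoglyceride lipase, differed by -0.31 with overlap (limma, adjusted p = 0.872).

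Of 11 genes of fuel switching and other PPAR targets, 6 had a higher and 5 a lower mean (median 0.13), and 0 passed an unadjusted p in either direction. The relatives of Pdk4 all had a higher mean, by 0.22 in Pdk1, 0.34 in Pdk2 and 0.30 in Pdk3, none passing. Fgf21, a hormone induced by PPARα in liver, differed by -1.04 at a low signal with overlap (limma, adjusted p = 0.872).

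**Figure D4:**
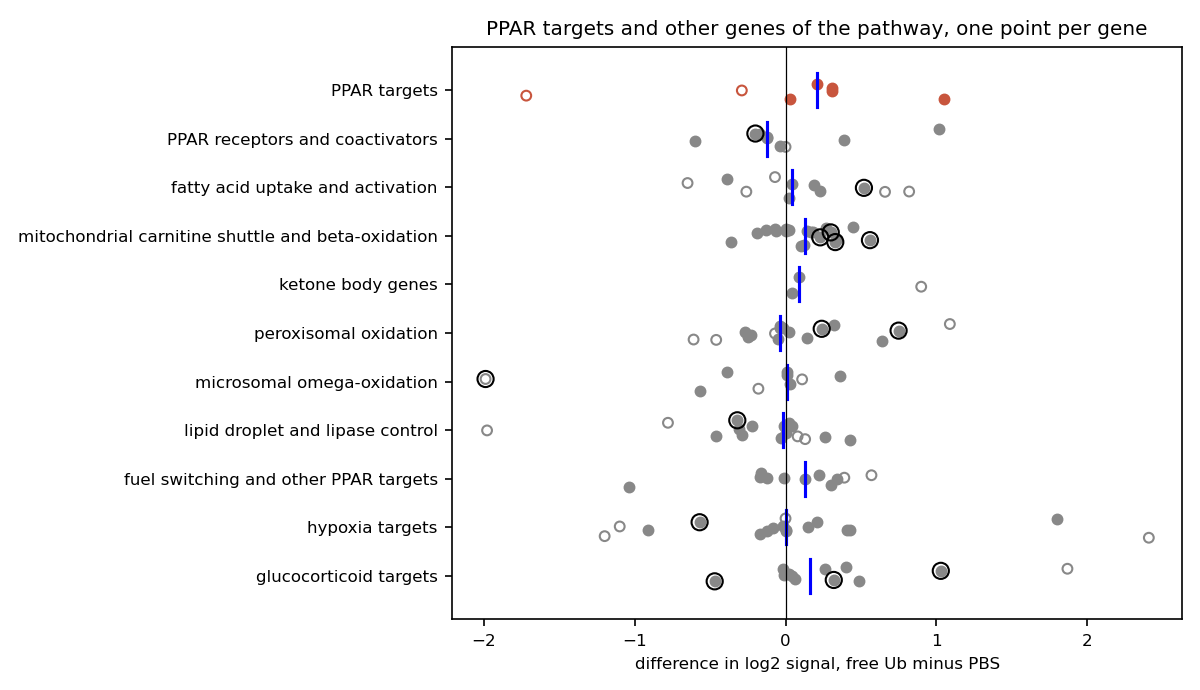
Difference in log2 signal, free Ub minus PBS, with one point per gene, for the PPAR targets (top row, red), the 8 lists of related genes and the targets of hypoxia and glucocorticoids. Open points had a value at the floor on some array, black rings mark list genes at an unadjusted p under 0.05 in limma, and blue bars are medians. The median is 0.21 for the PPAR targets, 0.16 for the glucocorticoid targets and 0.13 for both the mitochondrial and the fuel switching list. Most lists lie on both sides of 0.

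Angptl4 is shared with the hypoxia and glucocorticoid responses, and the targets of both were counted in the same way. Of 17 measured hypoxia targets 7 had a higher and 9 a lower mean, with a median of 0. Ddit4, an inhibitor of mTOR signaling induced by hypoxia and by glucocorticoids, was lower at an unadjusted p, with 7.61, 7.13 and 7.23 in free Ub intestines, against 7.84, 7.71 and 8.10 in PBS intestines (difference -0.57, limma, adjusted p = 0.853). Ddit4 lost that call without PBS intestine 1 or 3 or free Ub intestine 2 or 3, its difference lying between -0.71 and -0.46. Egln1 (1.80) and Ankrd37 (0.41) did not pass with all 6 arrays, and the number of hypoxia targets higher at an unadjusted p was 0 to 2 when 1 array was left out. Of 12 glucocorticoid targets 9 had a higher and 3 a lower mean (median 0.16). Zbtb16, a zinc finger repressor, read 4.03, 3.75 and 3.81 in free Ub intestines, against 2.66, 3.05 and 2.77 in PBS intestines, a difference of 1.03 (limma, adjusted p = 0.271), and was higher at an unadjusted p. So was Nfkbia, the inhibitor of NF-κB, by 0.32 (limma, adjusted p = 0.582), though its second probe differed by 0.02. Zbtb16 was dim, and only its reading of 4.03 lay above 4. With values under 4 raised to 4, 1 glucocorticoid target rather than 2 was higher at an unadjusted p, beside 1.35% of all genes. Dusp1, a phosphatase of MAP kinases, was lower at an unadjusted p (difference -0.47, limma, adjusted p = 0.753), and lost that call without PBS intestine 2 or free Ub intestine 1 or 2, with differences of -0.59 to -0.38.

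Markers of cell types that could carry these genes were read on the same arrays. The enterocyte genes Alpi, Sis, Apoa4 and Vil1 read 11.88 or more on every array, while the probe of Fabp1 was at the floor on 4 arrays and that of Fabp2 on 3. The 9 measured enterocyte markers summed to a log2 signal of 15.94 to 16.06 in free Ub intestines and 15.91 to 16.16 in PBS intestines. Adipocytes are rich in Angptl4 and Plin2, and their 8 measured markers, of which 3 had a higher and 4 a lower mean and 0 passed an unadjusted p, summed to 9.21 to 9.50 with free Ub and 8.81 to 9.40 with PBS. Cidec, which enterocytes also express, made up nearly all of that sum. Among the defining adipocyte genes Retn was at the floor on all 6 arrays, Fabp4 was above it on 1 PBS array only, Plin1 was at it on 4 arrays, Adipoq read 1.44 to 2.38 with free Ub and 0.92 to 3.18 with PBS, and Lep, above the floor on every array, read 4.27 to 4.74 with free Ub and 4.34 to 4.57 with PBS.

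Markers of acinar pancreas varied most between the intestines. The 5 measured summed to 15.86, 14.74 and 10.15 in free Ub intestines 1 to 3, against 14.61, 12.93 and 16.03 in PBS intestines 1 to 3, all 5 had a lower mean with free Ub, and 0 passed an unadjusted p. With their mean signal as a covariate, an alternative chosen after seeing the data, Angptl4 differed by 1.19, Plin2 by 0.30, Acadm by 0.18, Pdk4 by 0.32, Ehhadh by -0.03, Cpt1a by -1.38 and Ppara by -0.53. Without it these differences were 1.05, 0.31, 0.21, 0.31, 0.03, -1.72 and -0.29 in the same order of genes. Among hepatocyte markers Ttr read 5.71 to 6.43 with free Ub and 6.25 to 6.95 with PBS, while Fgb was at the floor on all 6 arrays and Alb at the floor in all 3 free Ub intestines, and of the 6 measured only Ahsg was lower at an unadjusted p. Of 7 crypt and stem cell genes, 6 had a higher and 1 a lower mean, and Axin2 (0.42) was higher at an unadjusted p. Of 7 endothelial genes, 2 had a higher and 5 a lower mean, and Eng (-0.56) and Robo4 (-0.46) were lower at it. In the other marker lists 0 of 7 macrophage and 0 of 6 smooth muscle genes passed. Over all genes 2.34% were higher and 3.4% lower at an unadjusted p under 0.05. Beyond the acinar covariate, the part of these markers in the values of the PPAR targets was not tested.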

How the data were processed

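Intestinal RNA of 6 irradiated mice was hybridised to Illumina MouseWG-6 v2 BeadChips, 1 array per sample. The deposited values are read as log2 signals that the authors made in GenomeStudio with cubic-spline normalization. The log transform, background handling and floor are not given in the sources used here, and base 2 was inferred from the top value of 14.49. The median (2.551) and upper quartile (5.317) were equal on all 6 arrays, and 32.16% to 33.69% of the 45281 probes were at the floor. No detection values were used, so the number of arrays and the brightness of a probe limit the precision. The platform annotation gave 1 symbol to 34885 probes, several to 18 and none to 10378. For each of 19057 genes the brightest probe over the 6 arrays was used.

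All probes were fitted with limma 3.58.1 in R 4.3.3 (lmFit and eBayes, free Ub minus PBS, two-sided, no covariate), with Benjamini-Hochberg adjustment over all of them. A run on simulated data used independent noise and shifts only in bright genes, so it checked the code alone. The labels do not say whether the samples came from separate litters or cages, so p-values measure the spread between these samples. An exact permutation test of 3 against 3 cannot go below p = 0.1, and none is given. The genes and lists were chosen with earlier results of these data known. Named beside the 8 genes were up to 3 genes of each list with the smallest limma p above the floor on all 6 arrays and the 5 genes most like Angptl4. The others were chosen after their values were seen: list genes called in limma outside that rule, the hypoxia target Adm, relatives of the 8 genes and markers. Replicate numbers were not taken to pair the samples, although the study's methods name a paired Student's t-test for gene expression. Alternatives were quantile normalization, median centring, values under 4 raised to 4, only brighter probes, averaging the probes of a gene, the replicate number as a block, Student's t-test unpaired and paired, an intensity trend with robust variances, and leaving out each array. Acinar pancreas markers as a covariate and a restriction to genes above the floor on all 6 arrays were added after seeing the data.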

Additional observations from a re-analysis of the deposited data

How the results depend on the processing

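Angptl4, Plin2, Acadm and Pdk4 had a higher mean with free Ub under every alternative run. For these bright genes most alternatives could change the difference little or not at all. Those that could were leaving out 1 array, the acinar covariate and, for Angptl4, averaging its probes. Angptl4, which was chosen as higher on this contrast, ranged from 0.74 to 1.37 when 1 array was left out. Ehhadh ranged from -0.08 to 0.20 and Ppara from -1.49 to 0.33 when 1 array was left out. Ehhadh turned to -0.04 without PBS intestine 1, -0.06 without PBS intestine 3, -0.08 without free Ub intestine 3 and -0.03 with the acinar pancreas covariate. Ppara turned to 0.33 without PBS intestine 2 and to 0.29 without PBS intestine 3 and without free Ub intestine 2. The number of PPAR targets with a higher mean was 4 to 6 when 1 array was left out. Among the genes of the 8 lists, 7 were higher and 3 lower at an unadjusted p under 0.05, beside 2.34% and 3.4% of all genes. These became 2 and 0 with probes limited to those brighter than the median probe mean, beside 1.67% and 2.76% of the 12502 genes kept. With only genes above the floor on all 6 arrays, an alternative chosen after seeing the data, 76 list genes were kept. Of these, 4 were higher and 0 lower, beside 1.85% and 2.98% of the 11923 genes kept. The mean of a gene's probes gave 4 higher and 3 lower, beside 2.67% and 3.07% of all genes. Of the 10 genes called, 2 stayed called with the brighter probes, 3 above the floor and 5 with the mean of probes. Under the first 2 of these settings Cyp4a12a was filtered out, and the other genes kept their values and differences. Their calls were lost through limma's variance estimate, which was refitted on fewer probes. For the mean of probes the cause was not tested. Leaving out 1 array gave 5 to 8 higher and 2 to 4 lower, beside 2.3% to 3.34% and 3.03% to 4.43% of all genes. After adjustment it gave 0 to 2 list genes, beside 22 to 39 of all 19057 genes. The adjusted calls were Mgll without PBS intestine 2 (-0.50, limma, adjusted p = 0.0437), and Cyp4a12a and Plin5 without PBS intestine 3. Both of the last were at the floor in all 3 free Ub intestines, so no fold is given for them. The deposited arrays already shared their median and upper quartile, so median centring and quantile normalization could change little. Among targets of hypoxia, 0 to 2 were higher and 0 to 1 lower at an unadjusted p when 1 array was left out, and among those of glucocorticoids 2 to 3 and 0 to 1. With the acinar covariate Ppara differed by -0.53, against -0.29 without it.

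Deviations of same-numbered samples from their group means correlated at -0.16, -0.16 and -0.56 over 6141 genes. Those of differently numbered samples ranged from -0.39 to 0.48. With 3 samples in each group this check cannot exclude a pairing, and the numbers were not taken to pair the samples. With the replicate number as a block in limma 5 list genes were higher and 6 lower at an unadjusted p, beside 2.5% and 3.57% of all genes. With the paired Student's t-test of the methods 3 were higher and 3 lower, beside 1.76% and 2.3%. Of the 10 genes called, 7 and 4 stayed called. In this balanced layout the block cannot move a difference, only its error. Dim probes limit Cpt1a and Ppara, whose values lie near the floor.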
